A study of Mus musculus with 2 samples.

Results

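The genes described here encode the Eph receptors and their ephrin ligands, the Slits and their Robo receptors, and the netrins with their receptors and partners. They comprise 9 EphA and 5 EphB receptor genes, 5 ephrin-A and 3 ephrin-B genes, 3 Slit and 4 Robo genes, 2 netrin genes, Dcc and Neo1, 4 Unc5 receptor genes, Draxin, and 2 repulsive guidance molecule (RGM) genes. They were chosen by name, with no measured value: a row belonged if its Ensembl gene identifier, version removed, carried one of these symbols in GENCODE M21. All 40 were found among 43346 genes, each with a row in both libraries.

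Total RNA was sequenced from whole midbrain of healthy mouse embryos of strain B6NCrl at 12.5 days (E12.5), with male and female embryos pooled and no treatment or allele named in the labels. Both libraries form 1 group. Replicate 1 was made from a pool of 120 embryos and replicate 2 from a separate pool of 88 embryos, each from 10 ng of RNA longer than 200 nt. Each value is thus an average over many embryos and over every cell type in the dissected piece, and fewer cells of a type cannot be told apart from less RNA per cell.

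Guidance receptors on a growth cone, the moving tip of an axon, read ligands in its surroundings and steer the axon towards or away from them. Eph receptors are receptor tyrosine kinases whose ephrin ligands sit on the membrane of a neighbouring cell, ephrin-As by a lipid anchor and ephrin-Bs by a transmembrane segment, and signals can run into both cells. Graded ephrin-As in the tectum, the roof of the midbrain, are known to map incoming retinal axons, and netrin and Slits from the ventral midline are known to draw in and then expel commissural axons.

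Replicate 1 held 28212923 estimated counts on genes and replicate 2 held 36082643, and single members drew from 37 (Epha1, replicate 1) to 11177 counts (Robo1, replicate 2), with 1000 or more in both libraries for 24 members. Otx2, a gene of forebrain and midbrain, stood at 147 TPM (replicate 1) and 142 TPM (replicate 2), where TPM is the share of transcripts in the library, a level corrected for transcript length and scaled to a fixed total. En1, a gene of the midbrain and anterior hindbrain, was at 5.9 and 8.49 TPM. Of 9 hindbrain and cord markers, 8 stayed under 1 TPM in both libraries. Gbx2 was the exception and exceeded En1 in each pool, with 31.8 TPM (replicate 1) and 24.7 TPM (replicate 2). All 11 forebrain markers reached 1 TPM, with a summed level of 308.8 TPM in replicate 1 and 208.5 TPM in replicate 2. Markers of mesenchyme (1099.2 and 1552.6 TPM summed) and of red cells (16047.8 and 18920.6 TPM) were present in both.

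Nearly the whole set was transcribed at this stage. In both libraries 39 of 40 members reached 1 TPM, where 34.4% of all genes and 60.6% of protein-coding genes did, 26 members reached 10 TPM and 8 reached 50 TPM. The exception was Epha1, at 0.66 TPM (replicate 1) and 0.85 TPM (replicate 2). The median member stood at 21.5 TPM (replicate 1) and 22.7 TPM (replicate 2), beside 18 and 18.4 TPM for the 14895 genes at 1 TPM or more in both. The order of the members was much the same in the 2 pools, with a Spearman rho of 0.987 over the 40 genes, which share both libraries and are not replicates. Of the 39 pairs of neighbours in that order, 26 overlapped across the libraries, so that close ranks such as those of Efnb3, Robo1 and Epha7 do not mark a difference in level.

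**Figure D1:**
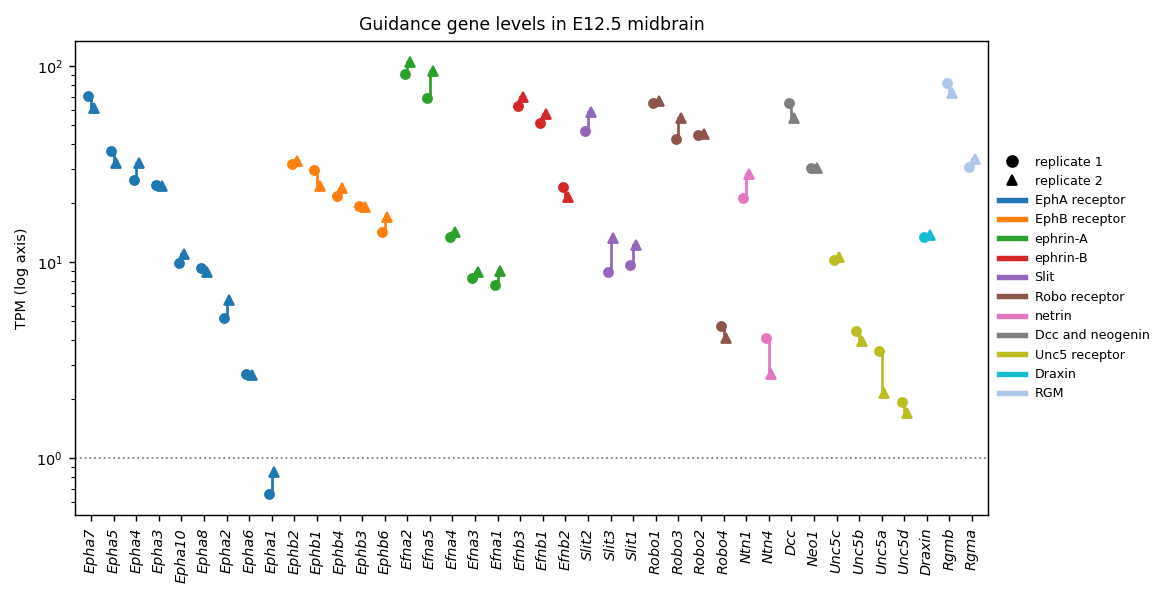
Level of each of the 40 guidance genes (TPM, log axis), grouped by class and ordered by mean level within a class; circles are replicate 1, triangles replicate 2, and the dotted line marks 1 TPM. Efna2 is the highest at 91.5 and 105 TPM, and Epha1 alone lies under the dotted line in both libraries.

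Among the ligands, 2 ephrin-A genes had the highest means of the whole set. Efna2 encodes ephrin-A2, which with ephrin-A5 is known as a repellent of retinal axons in the tectum, and it was at 91.5 TPM (replicate 1) and 105 TPM (replicate 2). Efna5, which encodes ephrin-A5, was at 68.8 TPM and 95.1 TPM. Of the summed ephrin-A TPM, Efna2 held 48.2% in replicate 1 and 45.2% in replicate 2, and Efna5 held 36.2% and 40.9%. The other 3 ephrin-A genes were far lower and did not overlap with them: Efna4 at 13.5 and 14.3 TPM, Efna3 at 8.33 and 8.91 TPM, and Efna1 at 7.63 and 9.08 TPM.

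The ephrin-B genes kept 1 order in both pools. Efnb3, known as a midline barrier in the developing central nervous system, was at 63 and 69.8 TPM. Efnb1, which is X-linked, was at 51.5 TPM (replicate 1) and 57.5 TPM (replicate 2). Efnb2, which also marks arterial endothelium, was lowest at 24.3 and 21.5 TPM, and none of the 3 genes overlapped with another across the libraries.

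EphA receptor genes differed widely in level. Epha7 was the highest, at 71 TPM (replicate 1) and 61.2 TPM (replicate 2), and held 38% and 34% of the summed EphA TPM. Epha5, Epha4 and Epha3, receptors that bind ephrin-As, followed at 36.8 and 32.2 TPM, 26.3 and 32.3 TPM, and 24.8 and 24.5 TPM. The order of Epha5 and Epha4 is not settled, since their values overlapped across the pools. Epha10 and Epha8 stood near 10 TPM, at 9.88 and 11 TPM and at 9.37 and 8.97 TPM. Epha2, a receptor of epithelial cells, was at 5.19 and 6.41 TPM, and Epha6 at 2.68 and 2.65 TPM.

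The 5 EphB receptor genes lay within a narrow band. Ephb2, a receptor for ephrin-Bs in many axon tracts, was at 31.8 TPM (replicate 1) and 32.7 TPM (replicate 2), and Ephb1 was at 29.5 and 24.5 TPM. Ephb4, known for its role in venous endothelium, was at 21.7 and 23.9 TPM, and Ephb3 was at 19.5 and 19.1 TPM. Ephb6 was the lowest at 14.2 and 17 TPM. Epha10 and Ephb6, whose kinase domains are known to be inactive, together held 7.94% of the summed Eph receptor TPM in replicate 1 and 9.42% in replicate 2.

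Summed over the classes, with all transcripts of each gene counted, Eph receptors and ephrins were present at similar levels. The 14 Eph genes summed to 303 and 297 TPM and the 8 ephrin genes to 328 and 381 TPM, a log2 ratio of Eph to ephrin of -0.24 ± 0.17 (SD, n = 2), with -0.12 in replicate 1 and -0.36 in replicate 2. With counts not corrected for length the log2 ratio was 0.36, so the sign holds per length only. EphA exceeded EphB 1.6-fold in replicate 1 and 1.54-fold in replicate 2, and ephrin-A exceeded ephrin-B 1.37-fold and 1.56-fold. No test was made of these ratios, which come from 2 libraries. They count all transcripts of a gene, also those that the annotation does not class as complete coding. As means of 2 libraries, complete coding transcripts held from 26.9% (Epha10) to 100% (Epha3) of an EphA gene, with 54.5% for Epha7 and 50.7% for Epha5. The range was 67.3% (Ephb2) to 100% (Ephb1) in EphB genes and 88.4% (Efna3) to 100% (Efna2) in ephrin genes. The ratios thus do not describe complete coding transcripts.

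**Figure D2:**
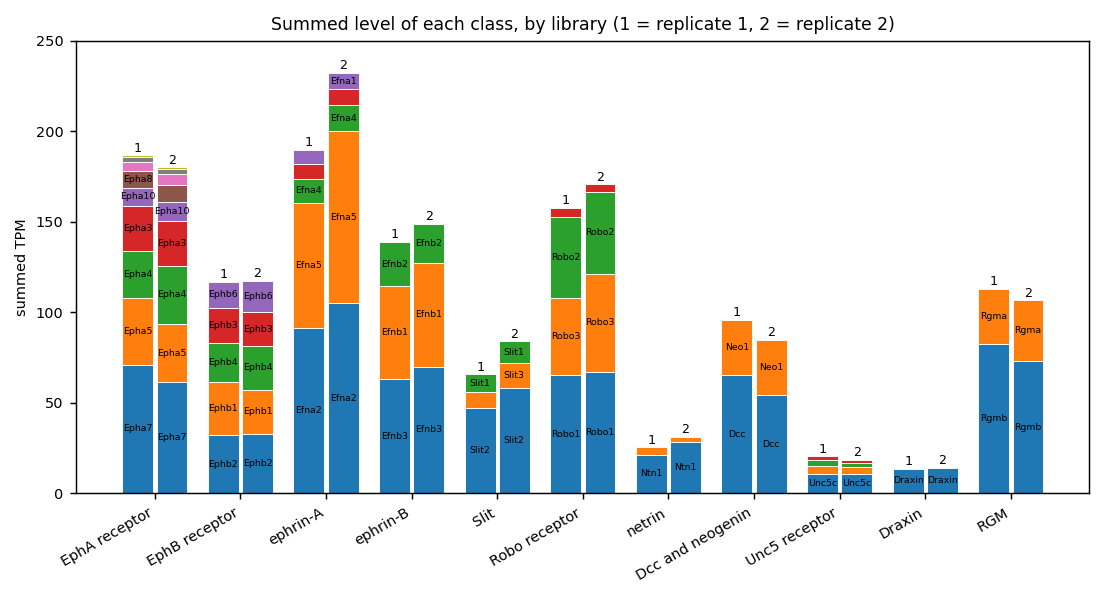
Summed TPM of each class in replicate 1 (left bar, 1) and replicate 2 (right bar, 2), from 0, with each bar divided by gene. Ephrin-A is the tallest class at 189.7 and 232.2 TPM, carried by Efna2 and Efna5, and the Unc5 class is among the lowest at 20.2 and 18.5 TPM.

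In the Slit and Robo system the summed TPM of the 4 Robo genes exceeded that of the 3 Slit genes. Slit2, a secreted repellent, was at 47 TPM (replicate 1) and 58.4 TPM (replicate 2) and held 71.6% and 69.6% of the summed Slit TPM. Slit3 was at 8.97 and 13.3 TPM and Slit1 at 9.65 and 12.2 TPM, so these 2 overlapped with each other and both lay well under Slit2. All 3 Slit genes were higher in replicate 2. Robo1, the main Slit receptor with Robo2, was at 65.3 and 66.9 TPM, and Robo2 was at 44.9 and 45.4 TPM. Robo3, known to hold back Slit repulsion in commissural axons before they cross the midline, was at 42.6 TPM (replicate 1) and 54.3 TPM (replicate 2). Robo4, an endothelial member of the family, was at 4.72 and 4.12 TPM. The summed Robo TPM was 2.4 times the summed Slit TPM in replicate 1 and 2.03 times in replicate 2. The Robo sum takes in Robo3 and Robo4, and both sums count all transcripts of a gene. As means of 2 libraries, complete coding transcripts held from 39.4% (Robo2) to 100% (Robo1) of a Robo gene. For Slit genes the range was 42.9% (Slit2) to 100% (Slit1), so the ratio does not describe complete coding transcripts.

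Of the netrin genes, Ntn1 carried most of the level. Ntn1 encodes netrin-1, an attractant for many commissural axons, and was at 21.2 TPM (replicate 1) and 28.3 TPM (replicate 2). Ntn4, a netrin of basement membranes, was at 4.1 and 2.68 TPM. The attractive receptor gene Dcc was at 65.2 and 54.2 TPM, and its relative Neo1, which encodes the RGM and netrin receptor neogenin, was at 30.4 TPM in both. Dcc was therefore the higher of the 2 in each pool.

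The Unc5 receptor genes, whose proteins turn the response to netrin into repulsion, were all low. Unc5c was at 10.3 and 10.6 TPM, Unc5b at 4.45 and 3.96 TPM, Unc5a at 3.53 and 2.15 TPM and Unc5d at 1.94 and 1.71 TPM. Dcc and Neo1 together exceeded the summed Unc5 TPM 4.73-fold in replicate 1 and 4.59-fold in replicate 2. Draxin, a secreted repellent that binds Dcc and netrin, was at 13.5 and 13.8 TPM. Of the RGM genes, whose membrane-anchored proteins bind neogenin, Rgmb was at 82.4 and 72.8 TPM and Rgma at 30.6 and 33.7 TPM, so Rgmb had rank 3 of all 40 members by mean.

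The pools were then compared gene by gene. The test was an exact binomial test on rounded estimated counts, adjusted by Benjamini-Hochberg over 18939 genes. It covers counting error only and compares these libraries, not conditions. With an adjusted p under 0.05, a 1.5-fold ratio and a mean of 1 TPM required, 1 of 39 tested members differed, while 3.45% of the 15199 genes tested at that level did. By direction, 0 members were higher in replicate 2 (2.09% of all genes) and 1 was lower (1.36%). With no fold required, 12 members were higher in replicate 2 (12.1% of all genes) and 8 were lower (13.9% of all genes) of the 39 tested, and the others did not pass. The absolute log2 ratio had a median of 0.20 over the members and 0.11 over all genes tested, and the median signed log2 ratio was 0.031 and -0.001. An exact negative binomial test of edgeR, which adds a spread between libraries estimated from all genes, called 0 members and 201 genes (1.32%), at 1.5-fold and at any fold alike. The deposited 95% intervals of TPM did not overlap for 11 members higher in replicate 2 (10.8% of all genes) and for 6 lower ones (5.28%). These intervals need not hold the TPM given here. For Robo1 in replicate 1 the interval ran from 61.9 to 64.5 TPM, while its TPM was 65.3. At an unadjusted p under 0.05 the negative binomial test passed 5 of the 40 members and 873 of the 15199 genes. Its spread was estimated from these same 2 libraries, so it cannot show whether the pools differ more than replicates do.

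The member past the fold threshold was Unc5a (ENSMUSG00000025876, mm10 chr13:54949411-55006018, plus strand). It drew 238 counts in replicate 1 and 181 in the deeper replicate 2, and was 1.7-fold lower in replicate 2 (95% exact interval 1.39-fold to 2.07-fold; exact binomial test, adjusted p = 1.68e-06). Its deposited TPM intervals overlapped, from 3.49 to 5.92 TPM in replicate 1 and from 2.07 to 3.51 TPM in replicate 2. By the negative binomial test its adjusted p was 0.0847, the lowest of any member.

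Smaller differences in the other direction included ligands of each system. Ntn1 was 1.44-fold higher in replicate 2 by normalised counts, from 1654 to 3085 counts (exact binomial test, adjusted p = 3.4e-32). Slit3 was 1.45-fold higher, with 434 and 811 counts (exact binomial test, adjusted p = 9.78e-09), and Efna5 was 1.36-fold higher, with 4757 and 8342 counts (exact binomial test, adjusted p = 2.1e-62). These 3 ligand genes had the largest ratios among the members with an adjusted p under 0.05 that were higher in replicate 2. By the negative binomial test their adjusted p was 0.245 (Ntn1), 0.325 (Slit3) and 0.498 (Efna5). Slit1, Robo3, Epha2, Slit2, Epha4, Efna2, Efnb1, Efnb3 and Robo2 were also higher, with log2 ratios from 0.30 down to 0.08.

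Among the genes lower in replicate 2, Dcc was 1.23-fold lower, with 5741 and 6037 counts (exact binomial test, adjusted p = 1.06e-26), and Ephb1, Epha7, Epha5, Rgmb and Efnb2 had log2 ratios from -0.28 to -0.19. Unc5c had a log2 ratio of -0.44 by counts, with 1079 and 1028 counts, but 0.04 by TPM. The opposite sign by TPM came with a 357-nt non-coding fragment, Unc5c-206, whose share of the gene's TPM was 11.1% in replicate 1 and 36.6% in replicate 2 on 5.25 and 22.5 counts. Robo1, Draxin, Neo1 and Ephb2 had log2 ratios from -0.03 to 0.01.

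**Figure D3:**
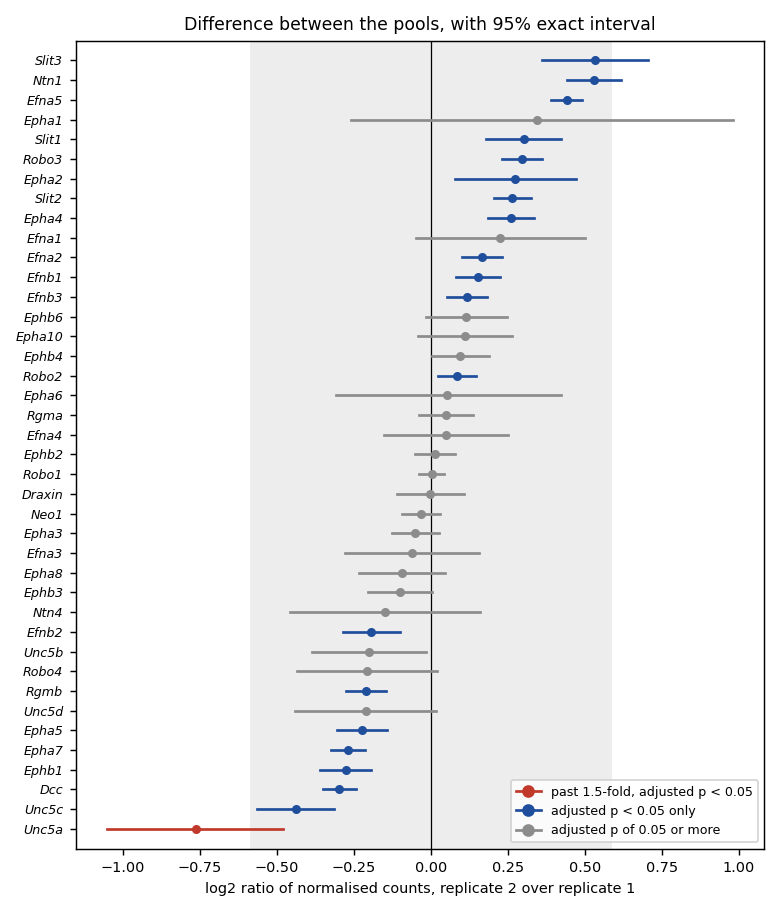
Log2 ratio of normalised counts, replicate 2 over replicate 1, for each member, with its 95% exact binomial interval; the grey band spans 1.5-fold in both directions. Unc5a (red) is the only point beyond the band, and the blue points have an adjusted p under 0.05 within it.

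Marker levels also differed between the pools. Of 8 floor plate markers, the ventral midline cells known to secrete netrin-1 and Slits, 6 were higher in replicate 2 with a median log2 ratio of 0.48 and a summed level of 54.2 and 65.4 TPM. Foxa2, Corin, Ferd3l and Nkx6-1 passed the fold threshold, each higher in replicate 2. All 8 mesenchyme markers were higher (median log2 ratio 0.39), as were 8 of 9 endothelial markers (median 0.22, summed 173.1 and 202.4 TPM). Of 11 forebrain markers 10 were lower (median log2 ratio -0.47), and the 8 young neuron and 8 progenitor markers had medians of -0.10 and -0.11. The median log2 ratio was 0.26 for 11 midbrain and isthmus markers, 0.35 for 7 microglial, 0.24 for 8 red cell and 0.51 for 5 epidermal markers. None of the defining markers of floor plate, mesenchyme or endothelium was at 0 in either library. The part of these cells in the differences of Ntn1, the Slits, Efna5, Dcc or Unc5a was not tested.

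Several receptors are made in forms that differ by a coding segment, and the transcript files give each form a level. The pairs described next were picked with their levels already known, as forms that both reached a measurable share. In the EphB family, Ephb1-201 differs from Ephb1-202 by 123 coding bases (41 residues) at mm10 chr9:101984082-101984204, minus strand, a stretch that runs from near the membrane into the first residues of the kinase domain. Ephb2-201 has 3 bases (1 residue) that Ephb2-202 lacks, at chr4:136675531-136675533, minus strand, and Ephb4-203 has 27 bases (9 residues) that Ephb4-201 lacks, at chr5:137362363-137362389, plus strand. The segments are shown, read from GENCODE M21 transcripts, to let the size and place of the change be seen. Capitals mark the segment and lower case the 20 bases that flank it in the spliced transcript.
Ephb1-201: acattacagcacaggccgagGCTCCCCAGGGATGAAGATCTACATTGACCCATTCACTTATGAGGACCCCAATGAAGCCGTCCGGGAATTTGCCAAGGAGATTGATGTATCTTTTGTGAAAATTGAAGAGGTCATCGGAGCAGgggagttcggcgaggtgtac
Ephb2-201: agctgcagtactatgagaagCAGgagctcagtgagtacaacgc
Ephb4-203: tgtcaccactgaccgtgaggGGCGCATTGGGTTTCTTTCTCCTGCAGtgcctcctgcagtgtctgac

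Of the Ephb1 pair, the form with the segment held 70.4% of the TPM in replicate 1 and 81.4% in replicate 2. Ephb1-201 was at 19.7 and 19.1 TPM while Ephb1-202 was at 8.31 and 4.35 TPM, so the difference between the pools lay mostly in the shorter form. For Ephb2 the form with the extra codon held 36.5% and 40.5% of its pair, and for Ephb4 the longer form held 10.5% and 16.9%. The shorter coding form was thus the larger in Ephb2 and Ephb4 and the smaller in Ephb1, in both pools.

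Epha7 has a form known to end before the kinase domain and to act on adhesion of neural folds. Epha7-202 encodes 610 residues and Epha7-201 encodes 998, and the 32 coding bases that only the short form of the pair holds lie at mm10 chr4:28946219-28946250, plus strand. They are shown because they encode its end, in capitals, with the stop codon opening the lower-case bases after them.
Epha7-202: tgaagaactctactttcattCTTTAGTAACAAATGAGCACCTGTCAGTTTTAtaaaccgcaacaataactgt

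Epha7-202 was at 9.9 and 7.83 TPM and Epha7-201 at 23.7 and 20.2 TPM, and the short form held 29.4% of the pair in replicate 1 and 28% in replicate 2. Both coding forms were lower in replicate 2, and the share of the short form was 28.7% ± 1.05 (SD, n = 2).

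Robo3 is known in forms with different C termini, one of which keeps a late intron. Robo3-205 holds 128 coding bases of such an intron at mm10 chr9:37417198-37417325, minus strand, and encodes 1345 residues against 1402 for Robo3-202, from which it also differs elsewhere. The annotation classes Robo3-205 as a target of nonsense-mediated decay. Its segment is printed in capitals because it replaces the C terminus, and the lower-case bases after it open with the stop codon.
Robo3-205: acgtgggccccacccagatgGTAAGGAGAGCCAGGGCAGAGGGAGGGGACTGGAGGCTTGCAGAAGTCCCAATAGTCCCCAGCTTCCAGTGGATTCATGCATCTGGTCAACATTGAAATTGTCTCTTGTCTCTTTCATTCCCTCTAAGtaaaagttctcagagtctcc

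Robo3-205 was at 3.68 TPM (replicate 1) and 2.96 TPM (replicate 2), and held 12.2% and 8% of the pair with Robo3-202. Robo3-202 was at 26.5 and 34 TPM, so the form without the retained sequence was higher in replicate 2 and Robo3-205 was not. This does not hold for all intron-keeping transcripts of the gene. Robo3-206, annotated as a retained-intron transcript, was also higher in replicate 2, at 8.83 and 12.2 TPM. Transcripts of that type held 29.2% of Robo3 in replicate 1 and 31.9% in replicate 2.

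Receptors of the netrin system also had paired forms. Unc5a-201 holds 168 bases (56 residues) at mm10 chr13:54997193-54997360, plus strand, that Unc5a-202 lacks, and the segment encodes a thrombospondin type repeat of the extracellular part. Unc5c-201 holds 57 bases (19 residues) at chr3:141786857-141786913, plus strand, that Unc5c-202 lacks. The Unc5a segment is shown because the difference of Unc5a between the pools was larger in the form that holds it. The Unc5c segment is shown for comparison with it. Capitals again mark the segment.
Unc5a-201: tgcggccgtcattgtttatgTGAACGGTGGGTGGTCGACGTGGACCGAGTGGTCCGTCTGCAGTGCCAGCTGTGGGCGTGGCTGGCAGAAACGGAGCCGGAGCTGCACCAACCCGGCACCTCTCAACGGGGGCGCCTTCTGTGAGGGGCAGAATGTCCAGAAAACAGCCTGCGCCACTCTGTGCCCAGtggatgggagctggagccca
Unc5c-201: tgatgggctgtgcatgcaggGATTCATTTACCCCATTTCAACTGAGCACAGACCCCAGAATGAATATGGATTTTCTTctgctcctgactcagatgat

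Unc5a-201, with the segment, was at 1.52 TPM (105 estimated counts) in replicate 1 and 0.40 TPM (35.2 counts) in replicate 2. Unc5a-202 was at 2.01 TPM (133 counts) and 1.75 TPM (146 counts). Both forms were thus lower in replicate 2 by TPM, Unc5a-201 by more. The form with the repeat therefore held 43.1% of the pair in replicate 1 and 18.8% in replicate 2, the widest gap between the pools among the 8 pairs. By posterior mean estimates it held 47.4% and 25.7%, a smaller gap. The lengths of the Unc5a forms, 3995 and 3827 nt, differ by the segment alone, and the lengths of the other 7 pairs differ by other amounts, so that their shares also rest on sequence outside it. In the Robo3, Unc5c and Dcc pairs a transcript has another length in M21 than in the M4 files that were quantified, so the segment may not match the quantified model there. Unc5c-201 held 23% and 19.1% of its pair. Dcc-202, the long form with 20 more residues than Dcc-201, held 77.8% of its pair in both libraries, at 48 and 40 TPM, and was the most even of the 8.

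**Figure D4:**
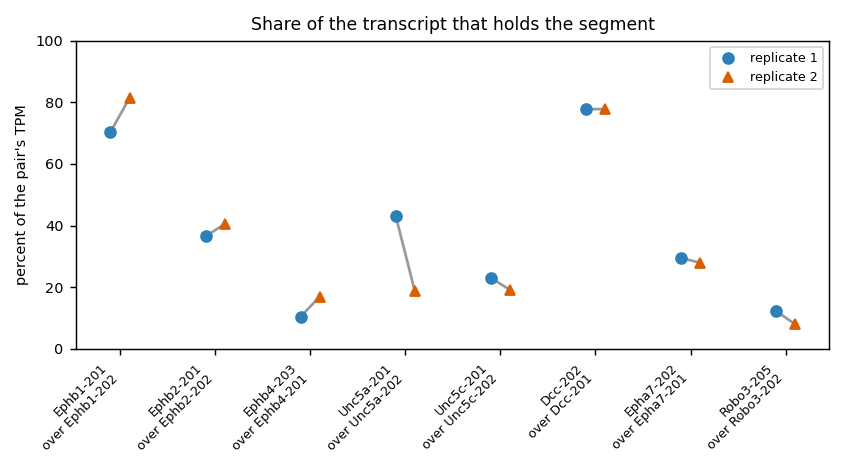
Share of each named form in the summed TPM of its pair (percent), in replicate 1 (circles) and replicate 2 (triangles). The Dcc pair lies at 77.8% in both, and the Unc5a pair at 43.1% and 18.8%.

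A gene's TPM includes transcripts that the annotation does not class as complete coding ones. Whether the libraries were primed from poly(A) tails is not settled by the labels, and its bearing on shares of retained-intron and non-coding transcripts was not tested. Of the members, 12 had 1 transcript in the files and 28 had several, and 24 of the latter reached a mean of 5 TPM. In those 24 the median share of complete coding transcripts was 85.8%, beside 85% over 8008 protein-coding genes chosen in the same way, and 16.7% against 16.5% had a share under 50%. The 4 members under 50% were Epha10 (26.9%), Robo2 (39.4%), Slit2 (42.9%) and Slit3 (43.7%), as means of 2 libraries.

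In several members the top transcript was a retained-intron one. Slit2-207 held 38.1% and 39% of Slit2, Epha5-207 held 42.3% and 40.8% of Epha5, and Robo2-209 held 30.8% and 33.2% of Robo2. Each of these shares was close in the 2 pools. A complete coding transcript came next in each gene. Slit2-202 held 36% and 38.4%, close to Slit2-207, Epha5-204 held 25.5% and 24.6%, and Robo2-202 held 22.7% and 23.5%. Ephb2-204, also a retained-intron transcript, held 34.2% and 28.3% of Ephb2, second to Ephb2-202 at 39% and 38.9%. The top transcript of Epha10, Epha10-202, is annotated as an incomplete coding sequence and held 59% and 58.5%.

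Restricting each gene to its complete coding transcripts moved some members down the order. Epha7 went from rank 6 to rank 8 at 39.8 and 32.4 TPM, Slit2 from rank 9 to rank 16 at 20.2 and 25 TPM, Robo2 from rank 11 to rank 20 at 17.1 and 18.5 TPM, and Epha5 from rank 12 to rank 21 at 18.8 and 16.3 TPM. The first 5 places, held by Efna2, Efna5, Rgmb, Efnb3 and Robo1, were the same on both measures.

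The top transcript was the same in both pools for 23 of the 24 members, as for 7444 of 8008 genes. The exception was Epha4. Epha4-205, annotated for nonsense-mediated decay, held 41.1% in replicate 1 and 6.23% in replicate 2, and Epha4-201 held 33.4% and 69.7%. Both encode 986 residues and their lengths, 6315 and 6328 nt, are nearly equal. The complete coding TPM of Epha4 was 8.77 in replicate 1 and 23.6 in replicate 2, whereas the whole gene was 1.2-fold higher by counts. By posterior mean estimates the shares of Epha4-205 were 36.2% and 25%, a smaller gap.

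**Figure D5:**
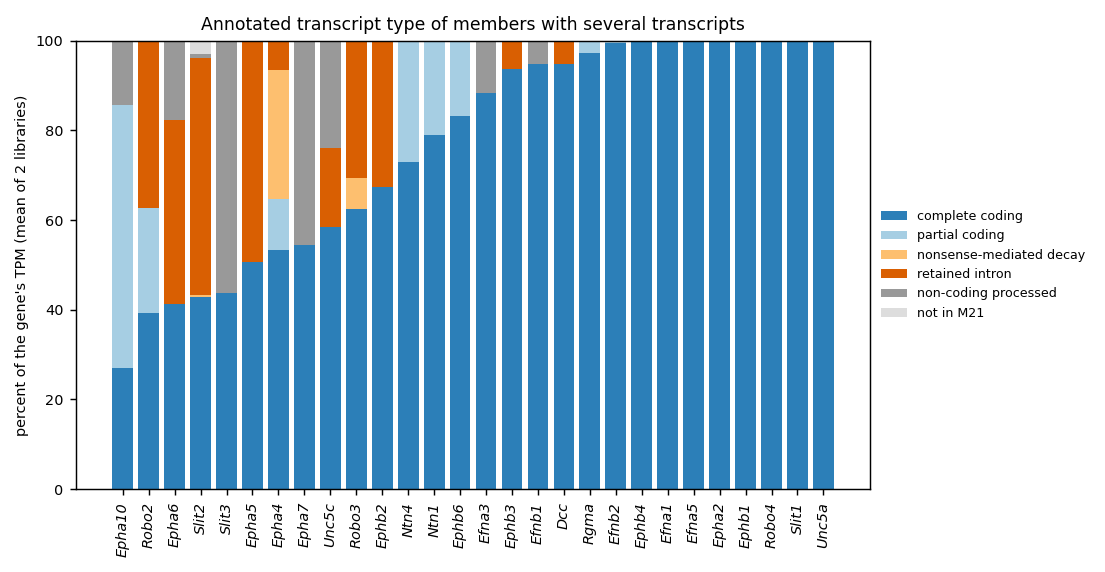
Percent of the gene's TPM (mean of 2 libraries) by annotated transcript type for the 28 members with several transcripts, ordered by the complete coding share. Epha10, Robo2, Slit2 and Slit3 lie under 50%, as does the low-level gene Epha6, and the right-hand bars are wholly or almost wholly complete coding.

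Other genes of these pathways, which include adaptors, proteases and further ligands, had no member past the fold threshold between the pools. Of 24 genes of Eph and ephrin signalling, at a median of 25.6 and 22.3 TPM, 3 were higher and 7 lower in replicate 2 at an adjusted p under 0.05, where 12.1% and 13.9% of all genes were. The highest were Grb10, an adaptor of receptor kinases, at 283 ± 9.28 TPM (SD, n = 2), Adam10, a protease that sheds ephrins, at 69.7 ± 2.13 TPM, Acp1, a phosphatase, at 53.7 ± 1.07 TPM, and Pick1, a PDZ protein that binds ephrin-B tails, at 52.6 ± 5.25 TPM. None of the 24 was under 1 TPM in both libraries.

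Of 15 tested genes of Slit and Robo signalling, 1 was higher and 8 were lower at an adjusted p under 0.05, beside the same 12.1% and 13.9% of all genes. The 16 listed genes had a median of 43.4 and 44.1 TPM. Ndfip1, an adaptor of ubiquitin ligases that acts on Robo1, was highest at 375 ± 10 TPM, followed by Nell2, a ligand of Robo3, at 83.3 ± 6.28 TPM, the Slit-binding glypican Gpc1 at 70 ± 2.91 TPM, and Ndfip2 at 62.1 ± 0.615 TPM. Prrg4, a relative of a fly gene that sorts Robo, was under 1 TPM in both. Of 17 tested genes around netrin, RGM and Draxin, 2 were higher and 2 lower at an adjusted p under 0.05, and the list was lower in level, with a median of 7.6 and 7.34 TPM. Maged1, which binds Unc5 receptors, was at 705 ± 19.8 TPM, Pitpna, a lipid transfer gene of netrin signalling, at 89.2 ± 2.52 TPM, the kinase gene Ptk2 at 63.5 ± 2.56 TPM and the BMP receptor gene Bmpr1a at 35.5 ± 1.1 TPM. The median log2 ratios of these 3 lists were -0.04, -0.12 and 0.02, beside -0.001 for all genes tested. The netrin-G genes Ntng1 (7.74 and 5.47 TPM) and Ntng2 (5.06 and 5.24 TPM) were expressed, while Ntn5 and Hfe2, an RGM relative, were under 1 TPM.

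The members lie on 16 chromosomes, and several are neighbours in mm10. On chromosome 3, Efna1, Efna3 and Efna4 follow one another with gaps of 32.8 and 10.4 kb and 0 genes between, and all 3 were between 7.63 and 14.3 TPM. Robo4 and Robo3 lie 0.6 kb apart on chromosome 9 on opposite strands, and Robo3 was the higher of the pair in each library. Robo1 and Robo2 are 845.7 kb apart on chromosome 16 with 0 genes between, and both were between 44.9 and 66.9 TPM. Members were longer than other expressed genes, with a median span of 62.8 kb beside 25.1 kb for 13214 protein-coding genes at 1 TPM, and 19 members spanned over 100 kb beside 15.6% of those genes. Exons of 10 members overlap a gene on the opposite strand, and whether the counting used strand is not given in the sources used here. For Epha1 that gene is Zyx, at 48.8 and 55.4 TPM with 236 shared bases, and if the counting did not use strand, reads of Zyx and of the low Epha1 could not be told apart there.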

How the data were processed

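Total RNA-seq was analysed from 1 group of 2 libraries of pooled E12.5 midbrain. The expected counts, estimated counts that need not be whole, were deposited per gene and transcript, per the file headers, in the columns of an RSEM output. The TPM values (with intervals and a posterior mean) and the isoform percent, a transcript's share of its gene, were made by the authors, per the file headers. The annotation was GENCODE M4 on mm10. The aligner and the strand setting were not given in the sources used here. Names, transcript types, coordinates and sequences came from GENCODE M21, which matched 42462 of 43346 identifiers, and some transcript lengths differ between the releases.

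The labels name total RNA, while a linked manual is for a SMARTer kit that primes from poly(A) tails, so the priming is not settled. Spike-ins took 4.14% and 3.48% of counts and, with 26248 short numbered features (0.0001% of counts), entered neither library sizes nor tests. Counts were rounded and scaled by TMM (edgeR 4.0.16, R 4.3.3; factors 0.995 and 1.005). A two-sided exact binomial test (doubled smaller tail) took genes with at least 10 summed counts, and log2 ratios had 0.5 counts added. Intervals are 95% exact binomial ones. These cover counting error only. With no contrast between conditions, edgeR's quasi-likelihood test had nothing to test. Replicates are separate pools, so p-values say nothing about spread between embryos.

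The members, the pathway and marker lists and the tests were chosen with earlier results of these data known. All members are given values. Of each pathway list, the 4 most abundant genes are named, and any under 1 TPM in both. Hjv and Ntn3 were not found by name, and Hfe2 stood for the former. Top transcripts, and others at 20% or more in both libraries, were considered for members at a mean of 5 TPM or more. The segment pairs need not meet that rule (Unc5a does not) and were picked with their values known. The test was tested on simulated data. Alternatives were DESeq2 1.42.0 size factors, total counts, other thresholds and added counts, posterior mean TPM, TPM over nuclear protein-coding genes, length-uncorrected counts, a negative binomial test and each library alone. Python 3.11.15 was used.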

Additional observations from a re-analysis of the deposited data

How the results depend on the processing

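The member call, Unc5a, stood with other size factors, with no minimum of counts and with no minimum of TPM. It was 20 members with no fold threshold, 0 with a 2-fold threshold and 0 with the negative binomial test. Over all genes the count of 525 became 803 with no minimum of TPM, 3957 with no fold threshold, 209 with a 2-fold threshold and 201 with the negative binomial test. The log2 ratio of Eph to ephrin sums changed sign to 0.36 with TMM-scaled counts, not corrected for length, and ranged from -0.36 to -0.12 when either library was left out. With TPM in place of counts, 4 of the 40 log2 ratios between the pools changed sign: Unc5c to 0.044, and, among members with no adjusted p under 0.05, Efna3 to 0.097, Epha6 to -0.016 and Draxin to 0.03. With each library left out, 39 members reached 1 TPM. Posterior mean TPM moved levels by 0.971-fold to 1.3-fold, most for Unc5a, and rescaling over nuclear protein-coding genes raised them by 1.26-fold to 1.27-fold. The segment pairs and their alternatives were chosen after seeing the data, and by posterior means Unc5c-201 held 14.5% of its pair. Leaving out a library leaves no comparison of the pools. No paired analysis was possible because both libraries belong to 1 group.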
